A study of Mus musculus with 9 samples.

Results

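The genes described here encode the structural and assembly proteins of the sarcomere, the contractile unit of striated muscle. They are 46 named genes of the thin filament, the thick filament, the Z-disc, the desmin network and the machinery that builds and turns over these structures, without the myosin heavy chains and troponins. All 46 were found among the 52780 genes of the deposited count table, 45 by their symbol and Murc by its newer name Cavin4. The list was given by name and not by any measured value. Earlier results of these data were known when the genes were chosen. Of the 46 genes, 11 belong to the thin filament, 13 to the thick filament and M-band, 13 to the Z-disc, 2 are desmin and the small heat shock protein Cryab, and 7 act in assembly and turnover.

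mRNA was sequenced from C2C12 cells, an established mouse myoblast line that fuses into myotubes when serum is withdrawn, at day 4 of differentiation. There were 3 groups of 3 samples, which the labels call WT, KD mH2A1.1 and KD mH2A1.2. MacroH2A1 is a histone variant with the splice isoforms macroH2A1.1 (mH2A1.1) and macroH2A1.2 (mH2A1.2), and each knockdown group was transfected with siRNA against 1 of them at 10 nM, delivered repeatedly before and during differentiation. The WT samples, called control here, carry the genotype label wild type, and the study's methods list a scrambled control siRNA. The labels do not say whether these samples received it, nor which of the siRNAs listed for an isoform was used. The study describes the replicates as independent biological replicates.

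In a sarcomere, thin filaments of actin and tropomyosin slide along thick filaments of myosin. Titin spans from the Z-disc, where thin filaments are anchored by alpha-actinin, to the M-band, where thick filaments are tied together by myomesins. Nebulin, tropomodulins and leiomodins set and cap the thin filaments, myosin-binding proteins and myosin light chains modulate the thick filaments, and desmin links neighbouring myofibrils. Chaperones, Kelch proteins and ubiquitin ligases fold, protect and replace these parts. In C2C12 cells the genes are switched on as myoblasts leave the cell cycle and fuse.

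Muscle genes are classically driven through E-boxes, bound by MyoD-family factors, CArG boxes, bound by serum response factor, and AT-rich elements bound by MEF2 factors. RefSeq promoters (GRCm38.p6, 250 bases before to 50 bases after the start) were matched for 35 of the 46 genes. The E-box CAGCTG, which reads the same on both strands, was found in 17 of the 35 windows (48.6%), against 18.3% of the windows of 27025 genes. A CArG box stood in 6 (17.1%, against 1.81%) and a MEF2 motif in 6 (17.1%, against 3.7%), counted on both strands, and no gene held both of these. These are matches of letters in a window and were not tested as binding sites. Actn3, Cryab, Lmod3, Mylk2, Myom2, Myot, Myoz1, Myoz3, Neb, Tcap and Xirp1 were not in the table.

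The 250 bases before the start are shown for 6 genes on which the results below turn, in lower case with motif matches in capitals, 5′ to 3′ on the strand of the gene. Acta1 (chr8:123894776-123895025, minus strand) has the highest level per length and holds an E-box and a CArG box. Klhl40 (chr9:121777357-121777606, plus strand) and Des (chr1:75360042-75360291, plus strand) fell with mH2A1.2 knockdown and each hold an E-box close to the start. Myom3 (chr4:135759465-135759714, plus strand), which also fell, holds a MEF2 motif. Mybph (chr1:134193198-134193447, plus strand, with an E-box) and Myl4 (chr11:104550413-104550662, plus strand, with none of the motifs) were lower with mH2A1.1 knockdown than with mH2A1.2 knockdown.
Acta1: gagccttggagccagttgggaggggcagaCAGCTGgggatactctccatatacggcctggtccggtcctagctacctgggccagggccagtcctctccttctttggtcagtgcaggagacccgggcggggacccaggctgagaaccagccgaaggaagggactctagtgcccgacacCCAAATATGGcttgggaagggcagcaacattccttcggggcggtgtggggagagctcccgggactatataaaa
Klhl40: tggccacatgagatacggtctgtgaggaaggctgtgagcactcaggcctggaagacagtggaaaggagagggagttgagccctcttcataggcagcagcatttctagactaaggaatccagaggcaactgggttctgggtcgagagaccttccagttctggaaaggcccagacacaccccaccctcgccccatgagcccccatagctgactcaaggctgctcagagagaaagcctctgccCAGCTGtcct
Des: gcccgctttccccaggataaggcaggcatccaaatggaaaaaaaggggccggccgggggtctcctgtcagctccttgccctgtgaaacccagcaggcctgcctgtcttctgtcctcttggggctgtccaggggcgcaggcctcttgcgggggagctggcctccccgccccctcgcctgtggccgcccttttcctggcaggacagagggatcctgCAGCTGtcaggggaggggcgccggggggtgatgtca
Myom3: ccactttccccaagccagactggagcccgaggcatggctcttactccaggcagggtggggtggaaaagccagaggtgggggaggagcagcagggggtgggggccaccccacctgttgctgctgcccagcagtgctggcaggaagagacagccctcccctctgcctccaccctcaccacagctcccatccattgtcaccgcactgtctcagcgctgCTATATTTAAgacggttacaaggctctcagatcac
Mybph: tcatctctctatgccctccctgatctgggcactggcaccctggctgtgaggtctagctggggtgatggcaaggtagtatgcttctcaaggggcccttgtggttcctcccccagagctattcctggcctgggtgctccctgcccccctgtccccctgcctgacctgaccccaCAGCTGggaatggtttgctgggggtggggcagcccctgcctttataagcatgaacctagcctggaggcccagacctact
Myl4: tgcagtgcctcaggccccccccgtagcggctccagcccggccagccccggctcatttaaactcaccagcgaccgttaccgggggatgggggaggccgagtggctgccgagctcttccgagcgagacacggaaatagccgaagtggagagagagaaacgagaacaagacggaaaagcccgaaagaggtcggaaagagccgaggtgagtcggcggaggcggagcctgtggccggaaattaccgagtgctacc

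The 9 samples held between 36924252 and 42223108 estimated counts each. H2afy, the gene of both macroH2A1 isoforms, was counted over both isoforms together, so it checks each label only in part. Levels are given as CPM, counts scaled to a common library size. Its level was 56.3 to 62.4 CPM in the control samples, 30.0 to 38.8 CPM with mH2A1.1 knockdown and 43.2 to 47.2 CPM with mH2A1.2 knockdown, and the groups did not overlap. Against control it was lower by -0.85 ± 0.11 (log2 fold change ± SE, adjusted p = 0.00331) with mH2A1.1 knockdown and by -0.39 ± 0.11 (adjusted p = 0.108) with mH2A1.2 knockdown. In these bulk samples, fewer muscle cells and less RNA per muscle cell cannot be told apart from RNA levels alone. By microscopy, the paper reported that neither knockdown changed the total number of nuclei. With mH2A1.2 knockdown it reported a higher percentage of cells with embryonic myosin heavy chain, more of this protein and larger myotubes. With mH2A1.1 knockdown it reported less fusion. Whether the sequenced samples had the same cell composition was not tested.

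In control myotubes the sarcomere genes differed widely in level per length of exon. Acta1, skeletal alpha-actin, was highest, at 2358 ± 566 CPM per kb of exon (mean ± SD, n = 3). Mylpf, the fast regulatory light chain, followed at 1663 ± 302 CPM per kb, and Actc1, cardiac alpha-actin, at 1649 ± 458 CPM per kb. The ranges of these 3 genes overlapped, so their order is not fixed by the data. Next came Myl1, an essential light chain, at 739 ± 198 CPM per kb, and Tpm2, beta-tropomyosin, at 645 ± 152 CPM per kb, again with overlapping ranges. In all, 14 genes stood at 100 CPM per kb or more, 22 from 10 to below 100, 4 from 1 to below 10 and 6 below 1. The 6 lowest were Myoz1, Myl2, Xirp2, Nebl, Myl3 and Myoz3. Myl3, the slow and ventricular essential light chain, had 1 to 5 counts in each sample, and Myoz3, a calsarcin of fast fibres, had no count in 7 of the 9 samples and at most 3 in the others. Both were too low for the test, which left 44 genes.

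**Figure D1:**
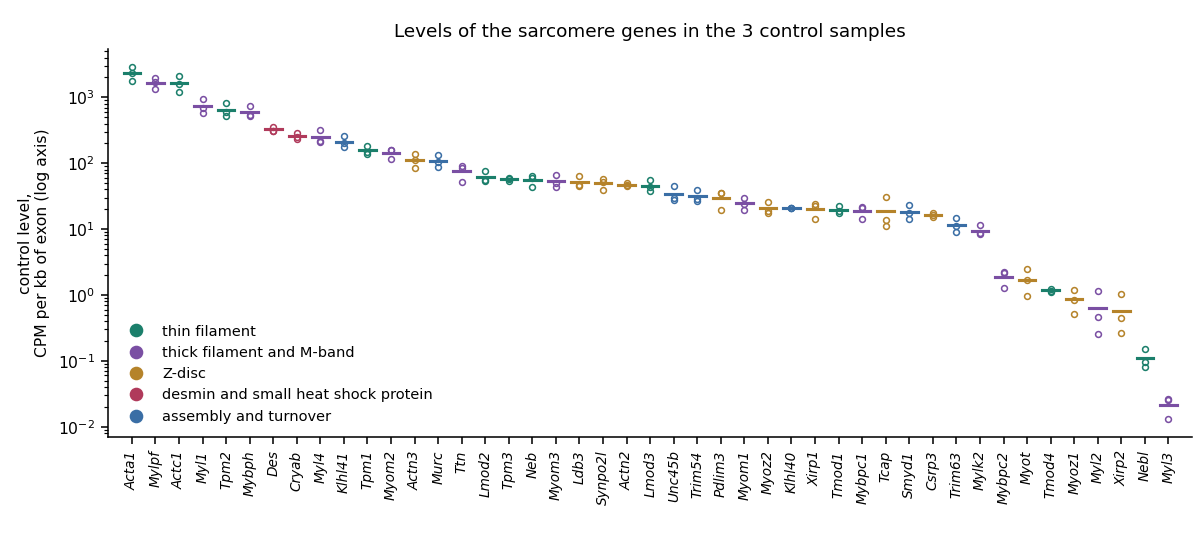
Level of 45 of the 46 sarcomere genes in the 3 control samples, in CPM per kb of exon on a log axis, ordered by the mean. Open circles are samples and bars are means. Myoz3, with no count in the control samples, is left out. Acta1, Mylpf and Actc1 lead with means of 1649 to 2358 CPM per kb, and Myl3 is lowest at 0.0215 CPM per kb.

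The first comparison asked how these genes differ when mH2A1.1 is knocked down. Tmod1, Mylk2 and Mybpc1 rose and Myl4 and Actn2 fell (adjusted p at most 0.05, edgeR over 19545 genes). The 3 rises are 6.82% of the 44 genes tested, where 6.18% of all genes tested rose, and the 2 falls are 4.55%, where 4.93% of all genes fell. The log2 fold change was above 0 for 21 genes and below 0 for 23, and its median was -0.06, where the median of all genes was -0.009. In 9 genes all knockdown samples lay above all control samples, which 17.5% of all genes did, and in 8 they lay below, which 16.7% did. None of the 44 passed the stricter rule in edgeR (adjusted p under 0.01, and a log2 fold change beyond 0.8 in either direction), which 1.8% of all genes passed. In DESeq2 3 passed it, with no share of all genes at that rule given. An unadjusted p under 0.05 was found for 18 of the 44 genes, 10 higher and 8 lower, where 15.4% of all genes were higher and 14.2% lower. The number called depended on the tool, and DESeq2 called 7 genes higher and 6 lower, where it called 4.85% of the 37475 genes with a count higher and 4.1% lower. With the replicate number as a block 18 genes were called, where 11.1% of all genes were higher and 9.7% lower. Tpm1, Tpm3, Nebl, Tmod1, Myl2, Mylk2, Mybpc1, Synpo2l, Xirp1, Des and Smyd1 were higher. Actc1, Myl4, Mybph, Actn2, Ldb3, Csrp3 and Trim63 were lower. Pairing by number was not settled for this comparison. Without the block, the calls rested on few samples. Without KD mH2A1.1 replicate 3 none of the genes was called, without KD mH2A1.1 replicate 1 only Actn2 was, without WT replicate 1 or 2 there were 2, without WT replicate 3 there were 3, and without KD mH2A1.2 replicate 1 there were 8. Of all genes, 2.29% were called higher and 1.04% lower without KD mH2A1.1 replicate 3, and 2.34% and 1.11% without KD mH2A1.1 replicate 1. The shares were 3.95% and 3.61%, 1.92% and 1.07%, and 2.52% and 1.51% without WT replicates 1, 2 and 3. Without KD mH2A1.2 replicate 1 they were 6.71% and 5.86%. The median changed sign, to 0.15, without WT replicate 3 and to 0.01 without KD mH2A1.1 replicate 1.

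With mH2A1.2 knockdown the sarcomere genes were mostly lower than in control. Actn2, Mylk2, Klhl40, Mybpc2, Lmod2, Myom3 and Des fell and no gene rose. These 7 genes are 15.9% of the 44 tested, where 0.982% of all genes fell and 1.37% rose. The log2 fold change was below 0 for 40 of the 44 genes, with Acta1, Myl2, Mybph and Myot as the exceptions, and its median was -0.52, where that of all genes was 0. In 20 genes all knockdown samples lay below all control samples, which 10.8% of all genes did. In none did they lie above, which 11.7% of all genes did. Actn2 and Klhl40 passed the stricter rule, which 0.179% of all genes passed. That count of 2 held only without KD mH2A1.1 replicate 1, and was 1 without KD mH2A1.1 replicate 2 and 0 without any of the other 7 samples. At an unadjusted p under 0.05, 27 genes were lower and 1, Myl2, was higher, where 7.73% of all genes were lower and 8.18% higher. DESeq2 called 16 genes lower and 0 higher, where it called 1.3% of the 37475 genes with a count lower and 1.63% higher.

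In this comparison replicates of the same number deviated together, and with the replicate number as a block 16 genes were called lower and 0 higher, where 2.25% of all genes were lower and 2.9% higher. The 9 genes added were Lmod3, Tmod1, Myl1, Myom1, Myom2, Myoz2, Tcap, Cryab and Klhl41, with adjusted p values between 0.0115 and 0.045. The count at the stricter rule rose from 2 to 4, with no share of all genes at that rule given for this fit. At an adjusted p of at most 0.05, Mylk2, Actn2 and Klhl40 kept their calls whichever of the 9 samples was left out. The number called was 3 without WT replicate 1, KD mH2A1.1 replicate 3, KD mH2A1.2 replicate 1 or KD mH2A1.2 replicate 2, and 4 without WT replicate 3 or KD mH2A1.2 replicate 3. In the fits with 3, 0.144%, 0.46%, 0.189% and 0.183% of all genes were called lower, in that order. In the fits with 4, the shares were 0.224% and 0.396%. Without WT replicate 3, which had the highest level of most of these genes among the control samples, the median was -0.38.

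Compared directly, the knockdowns differed in 24 of the 44 genes. With mH2A1.1 knockdown 22 genes were higher than with mH2A1.2 knockdown, 50.0% of those tested, where 12.0% of all genes were higher. Myl4 and Mybph were lower, 4.55% of those tested, where 10.5% of all genes were lower. Nebl, Mylk2, Tmod1, Des, Mybpc1, Synpo2l and Smyd1 passed the stricter rule, which 6.38% of all genes passed. The median log2 fold change was 0.62 and 36 of the 44 genes were above 0. In 25 genes the samples of mH2A1.1 knockdown all lay above those of mH2A1.2 knockdown, which 20.3% of all genes did, and in 2 they lay below, which 19.4% did. The calls of 12 genes, Tpm3, Nebl, Lmod2, Tmod1, Myl4, Mylk2, Mybpc1, Myom3, Synpo2l, Des, Smyd1 and Klhl40, held whichever of the 9 samples was left out. The number called was 14 without KD mH2A1.1 replicate 3 and 13 without KD mH2A1.2 replicate 2. Of all genes, 7.77% were called higher and 6.05% lower in the first of these fits, and 6.04% and 5.12% in the second. This comparison shares its samples with the other 2, and those 2 share the control samples, so the 3 sets of values are not independent.

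**Figure D2:**
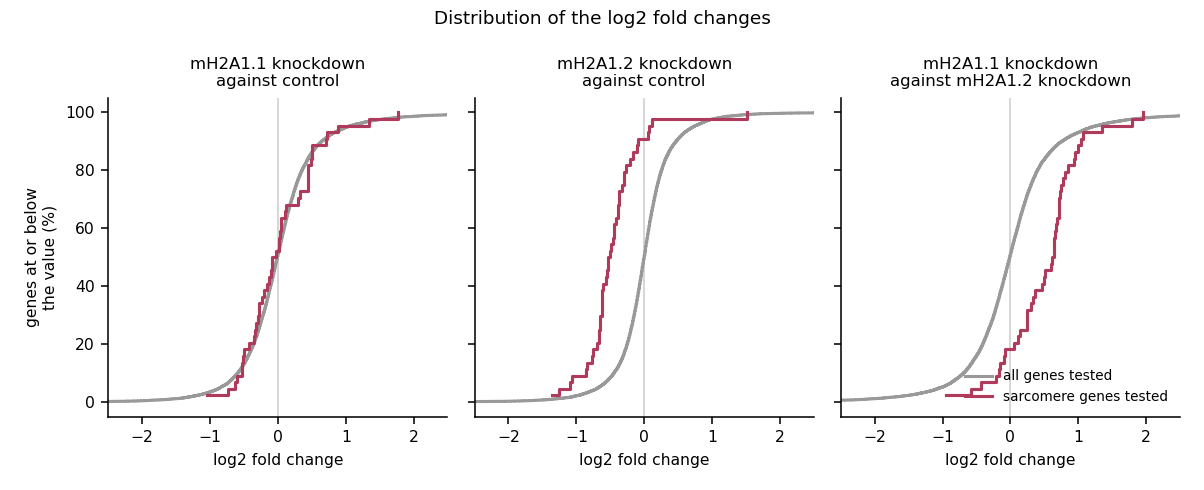
Share of genes (percent, vertical axis) at or below each log2 fold change (horizontal axis) for the 44 sarcomere genes tested and for all 19545 genes tested, in each comparison. The curve of the sarcomere genes lies over that of all genes for mH2A1.1 knockdown against control (median -0.06), to its left for mH2A1.2 knockdown against control (median -0.52) and to its right for the direct comparison (median 0.62).

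**Figure D3:**
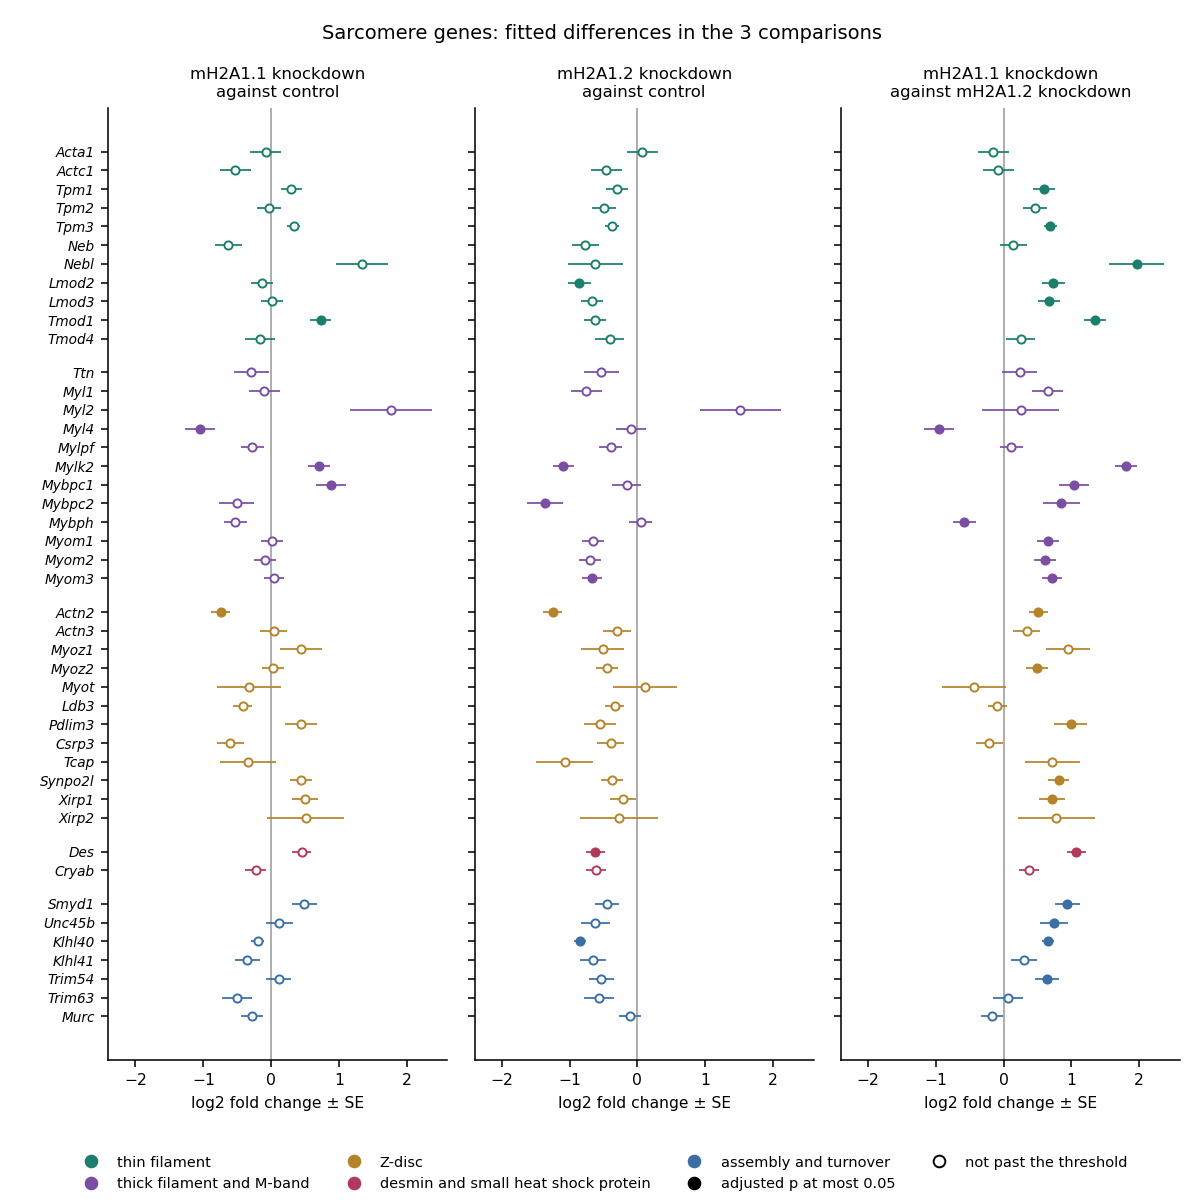
Log2 fold change ± SE of each of the 44 tested genes in each comparison, grouped by role. Filled points have an adjusted p of at most 0.05. In the middle panel 40 of 44 points lie left of 0, and in the right panel 22 filled points lie right of 0 and 2, Myl4 and Mybph, lie left of it.

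Among the 11 thin filament genes, 1 rose with mH2A1.1 knockdown, 1 fell with mH2A1.2 knockdown and 6 were higher in the direct comparison. These are 9.09%, 9.09% and 54.5% of the 11, where the shares of all genes were 6.18%, 0.982% and 12.0%. Tmod1 (ENSMUSG00000028328, chr4:46038935-46116032) encodes tropomodulin, which caps the pointed end of thin filaments. Its level was 74.5, 68.8 and 89.0 CPM in the control samples, 135, 125 and 124 CPM with mH2A1.1 knockdown and 46.6, 41.0 and 63.8 CPM with mH2A1.2 knockdown. The groups did not overlap, and control lay between the knockdowns. Tmod1 was 1.66-fold higher with mH2A1.1 knockdown than in control (log2 fold change 0.73 ± 0.16, adjusted p = 0.0195) and 2.54-fold higher than with mH2A1.2 knockdown (1.35 ± 0.16, adjusted p = 0.000557). Against control with mH2A1.2 knockdown it was at -0.62 ± 0.16 (adjusted p = 0.075, and 0.025 with the replicate block). The call against control was lost without WT replicate 1 or 2 or without KD mH2A1.1 replicate 1 or 3. Of the 50-base windows of Tmod1 transcripts, 31.4% also occur in transcripts of other genes, foremost the antisense neighbour Tstd2, at 22.2 to 38.8 CPM, so reads could be split between them.

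Lmod2 (ENSMUSG00000029683, chr6:24597762-24605414) encodes leiomodin 2, which nucleates and lengthens thin filaments. It stood at 107, 110.0 and 152 CPM in control, 88.4, 124 and 126 CPM with mH2A1.1 knockdown and 63.5, 68.9 and 71.0 CPM with mH2A1.2 knockdown. All samples of mH2A1.2 knockdown lay below all others. Lmod2 fell 1.81-fold with mH2A1.2 knockdown (log2 fold change -0.86 ± 0.17, adjusted p = 0.0297, and 0.00915 with the replicate block), a call lost in 6 of 9 fits that left out a sample, those without WT replicate 1 or 3, KD mH2A1.1 replicate 3 or any of the KD mH2A1.2 samples. In the direct comparison it was higher with mH2A1.1 knockdown by 0.73 ± 0.17 (adjusted p = 0.012). Its relative Lmod3 gave -0.67 ± 0.16 with mH2A1.2 knockdown (adjusted p = 0.0603, and 0.027 with the block) and 0.67 ± 0.16 in the direct comparison (adjusted p = 0.0143).

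Nebl (ENSMUSG00000053702, chr2:17343909-17731464) encodes nebulette, a short relative of nebulin known from heart muscle, and it was low, with 24 to 260 counts per sample. Control samples held 2.28, 1.47 and 1.24 CPM, mH2A1.1 knockdown 6.42, 2.77 and 3.41 CPM and mH2A1.2 knockdown 1.51, 1.07 and 0.645 CPM. All samples of mH2A1.1 knockdown lay above all others. The direct difference was 3.9-fold (log2 fold change 1.96 ± 0.40, adjusted p = 0.00785), the largest among the 44 sarcomere genes tested. Against control mH2A1.1 knockdown gave 1.34 ± 0.39 (adjusted p = 0.0522, and 0.00609 with the replicate block). Neb, nebulin itself, was lower than in control with both knockdowns without passing the threshold (-0.63 ± 0.20, adjusted p = 0.0707, and -0.77 ± 0.20, adjusted p = 0.0868) and its samples did not overlap with those of control.

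The tropomyosins wind along the actin filament. Tpm1 was higher with mH2A1.1 knockdown than with mH2A1.2 knockdown by 0.60 ± 0.16 (adjusted p = 0.0219) and Tpm3 by 0.69 ± 0.10 (adjusted p = 0.00161), while Tpm2 gave 0.46 ± 0.18 (adjusted p = 0.101). The call of Tpm1 was lost without KD mH2A1.1 replicate 3 and without KD mH2A1.2 replicate 1 or 2. Tpm3 stood at 356, 326 and 366 CPM in control, 409, 423 and 483 CPM with mH2A1.1 knockdown and 271, 267 and 275 CPM with mH2A1.2 knockdown, without overlap, and 23.2% of its windows occur in other transcripts, foremost Tpm3-rs7, at 0.32 to 1.58 CPM. Tpm2 held 1499, 1767 and 2362 CPM in control, 1781, 1813 and 1911 CPM with mH2A1.1 knockdown and 1149, 1237 and 1618 CPM with mH2A1.2 knockdown. The actins did not pass the threshold in any comparison without the replicate block. Acta1 (chr8:123891769-123894751) held 2741, 3644 and 4479 CPM in control, 3365, 3485 and 3420 CPM with mH2A1.1 knockdown and 2748, 3673 and 5000 CPM with mH2A1.2 knockdown, and its groups overlapped. Actc1 held 1971, 2588 and 3446 CPM in control, 1605, 2021 and 1900 CPM with mH2A1.1 knockdown and 1417, 2034 and 2373 CPM with mH2A1.2 knockdown. It was at -0.53 ± 0.23 (adjusted p = 0.155, and 0.0336 with the block) and -0.46 ± 0.23 (adjusted p = 0.378, and 0.0982 with the block) against control. Tmod4, the skeletal tropomodulin, lay at 1.26 to 2.14 CPM in all samples.

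Of the 13 thick filament and M-band genes 12 were tested: 2 rose and 1 fell with mH2A1.1 knockdown, 3 fell with mH2A1.2 knockdown, and 6 were higher and 2 lower in the direct comparison. Of all genes, 6.18% rose and 4.93% fell with mH2A1.1 knockdown and 0.982% fell with mH2A1.2 knockdown. In the direct comparison 12.0% of all genes were higher and 10.5% lower. Mylk2 (ENSMUSG00000027470, chr2:152911352-152923068), the skeletal myosin light chain kinase, was the only gene of the 44 that was called in opposite directions against control without the replicate block. With the block Tmod1 and Des were as well. Mylk2 stood at 25.4, 25.2 and 33.6 CPM in the control samples, 45.1, 41.0 and 51.6 CPM with mH2A1.1 knockdown and 10.8, 14.3 and 14.3 CPM with mH2A1.2 knockdown. No groups overlapped. Mylk2 was 1.64-fold higher than control with mH2A1.1 knockdown (log2 fold change 0.71 ± 0.16, adjusted p = 0.0207) and 2.13-fold lower with mH2A1.2 knockdown (-1.09 ± 0.16, adjusted p = 0.0131). The direct difference was 3.49-fold (1.80 ± 0.16, adjusted p = 0.000199). The rise against control was lost without WT replicate 1 or 2 or without KD mH2A1.1 replicate 1 or 3, while the fall and the direct difference held in all 9 fits that left out a sample.

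The myosin-binding protein C genes moved in different ways. Mybpc1 (ENSMUSG00000020061, chr10:88518279-88605152), the slow form, held 93.1, 64.9 and 98.4 CPM in control, 145, 147 and 179 CPM with mH2A1.1 knockdown and 99.4, 54.5 and 75.2 CPM with mH2A1.2 knockdown. The samples of mH2A1.1 knockdown lay above all others, and the other groups overlapped. It rose 1.84-fold with mH2A1.1 knockdown (log2 fold change 0.88 ± 0.22, adjusted p = 0.0305), a call lost without any of the WT samples or without KD mH2A1.1 replicate 1 or 3, and was 2.06-fold higher in the direct comparison (1.04 ± 0.22, adjusted p = 0.00845).

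Mybpc2 (ENSMUSG00000038670, chr7:44501699-44524656), the fast form, was far lower, with 78 to 300 counts per sample. It stood at 7.92, 7.99 and 4.64 CPM in control, 3.88, 5.19 and 5.37 CPM with mH2A1.1 knockdown and 3.58, 2.32 and 2.09 CPM with mH2A1.2 knockdown. All samples of mH2A1.2 knockdown lay below all others. It fell 2.57-fold with mH2A1.2 knockdown (log2 fold change -1.36 ± 0.27, adjusted p = 0.0347, and 0.0266 with the replicate block) and was 1.81-fold higher with mH2A1.1 than with mH2A1.2 knockdown (0.85 ± 0.27, adjusted p = 0.0471). The fall was kept in 3 of 9 fits that left out a sample, those without WT replicate 3 or KD mH2A1.1 replicate 1 or 2, and the direct difference in 2 of 9, those without WT replicate 3 or KD mH2A1.2 replicate 1.

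Mybph (ENSMUSG00000042451, chr1:134193448-134201232), myosin-binding protein H, went the other way. It held 1262, 1202 and 1723 CPM in control, 844, 1060 and 997 CPM with mH2A1.1 knockdown and 1434, 1277 and 1622 CPM with mH2A1.2 knockdown. Only the samples of mH2A1.1 knockdown lay apart, below all others. Against control it was at -0.53 ± 0.17 (adjusted p = 0.0661, and 0.0311 with the replicate block) with mH2A1.1 knockdown and 0.05 ± 0.17 (adjusted p = 0.918) with mH2A1.2 knockdown. It was 1.49-fold lower in the direct comparison (-0.58 ± 0.17, adjusted p = 0.0324), a call lost without KD mH2A1.1 replicate 1 or 3 or KD mH2A1.2 replicate 3. Of its windows, 43.9% occur in other transcripts, foremost the antisense gene Adora1, at 32.5 to 59.0 CPM.

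The essential light chain Myl4 (ENSMUSG00000061086, chr11:104550663-104595753), the embryonic and atrial form, had the largest fall of the 44 genes under mH2A1.1 knockdown. Control samples held 963, 1005 and 1458 CPM, mH2A1.1 knockdown 392, 651 and 617 CPM and mH2A1.2 knockdown 1005, 969 and 1239 CPM. The samples of mH2A1.1 knockdown lay below all others and the other groups overlapped. Myl4 fell 2.06-fold (log2 fold change -1.05 ± 0.22, adjusted p = 0.0182) with mH2A1.1 knockdown, a call lost without WT replicate 3 or KD mH2A1.1 replicate 1 or 3, and was 1.94-fold lower in the direct comparison (-0.95 ± 0.22, adjusted p = 0.0134). With mH2A1.2 knockdown it was at -0.09 ± 0.22 (adjusted p = 0.885).

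Myl1, the fast skeletal essential light chain, did not share this pattern. It held 1185, 1428 and 1985 CPM in control, 1417, 1392 and 1493 CPM with mH2A1.1 knockdown and 684, 842 and 1207 CPM with mH2A1.2 knockdown. Its log2 fold change was -0.75 ± 0.23 with mH2A1.2 knockdown (adjusted p = 0.13, and 0.026 with the replicate block) and -0.10 ± 0.23 (adjusted p = 0.81) with mH2A1.1 knockdown. Of its windows, 11.7% occur in other transcripts, foremost the pseudogene Mylf-ps, at 55.6 to 176 CPM. Mylpf held 1780, 1438 and 2079 CPM in control, 1608, 1424 and 1332 CPM with mH2A1.1 knockdown and 1323, 1123 and 1601 CPM with mH2A1.2 knockdown, and its groups overlapped. Myl2, the slow and ventricular regulatory light chain, had the highest log2 fold change of the 44 genes in both comparisons with control. They were 1.77 ± 0.60 (adjusted p = 0.0818, and 0.0262 with the block) and 1.52 ± 0.60 (adjusted p = 0.248, and 0.0827 with the block). Myl2 passed the threshold only with the block, for mH2A1.1 knockdown. It stood at 0.91, 0.506 and 2.24 CPM in control, 2.12, 3.06 and 7.3 CPM with mH2A1.1 knockdown and 5.29, 1.93 and 3.3 CPM with mH2A1.2 knockdown, which overlapped with control in both cases.

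The M-band genes Myom1, Myom2 and Myom3, the myomesins, moved alike. Myom3 (ENSMUSG00000037139, chr4:135759715-135815564) held 300.0, 267 and 399 CPM in control, 310.0, 329 and 352 CPM with mH2A1.1 knockdown and 206, 182 and 219 CPM with mH2A1.2 knockdown. All samples of mH2A1.2 knockdown lay below all others. Myom3 fell 1.59-fold with mH2A1.2 knockdown (log2 fold change -0.67 ± 0.15, adjusted p = 0.0479, and 0.0153 with the replicate block), a call that held only without WT replicate 2 among the 9 fits that left out a sample. Myom1 gave -0.65 ± 0.16 (adjusted p = 0.0627, and 0.0115 with the block) and Myom2 -0.70 ± 0.16 (adjusted p = 0.056, and 0.042 with the block). In the direct comparison all 3 were higher with mH2A1.1 knockdown, Myom1 by 0.66 ± 0.16 (adjusted p = 0.0148), Myom2 by 0.61 ± 0.16 (adjusted p = 0.0234) and Myom3 by 0.71 ± 0.15 (adjusted p = 0.00865). With mH2A1.1 knockdown against control they lay between -0.09 and 0.04. Ttn, titin, gave -0.29 ± 0.26 (adjusted p = 0.488) and -0.53 ± 0.26 (adjusted p = 0.359) against control, with overlapping groups.

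**Figure D4:**
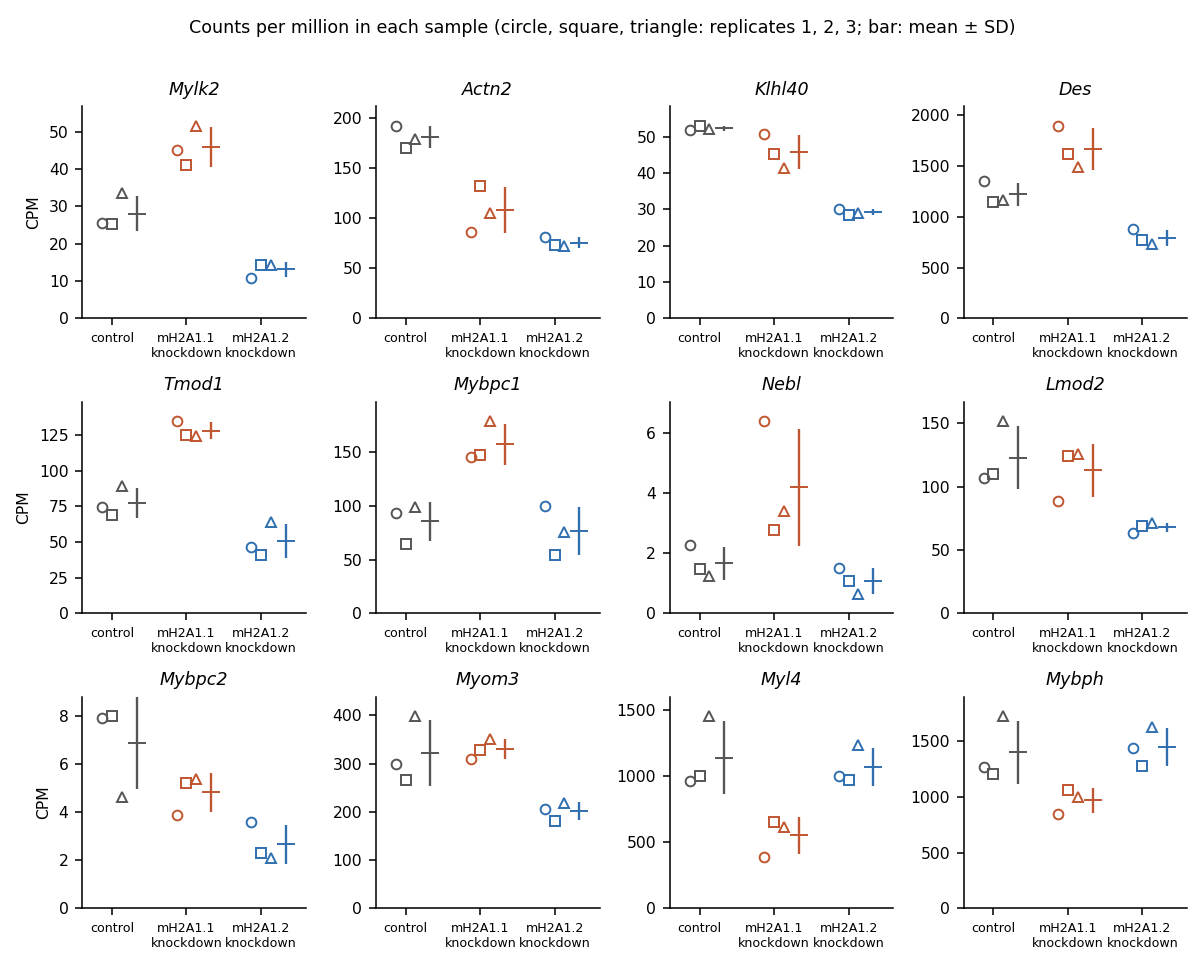
CPM (vertical axis, from 0) of 12 sarcomere genes in each sample, by group. Symbols are the replicates and the bar beside them is the mean ± SD (n = 3). Mylk2 lies at 41.0 to 51.6 CPM with mH2A1.1 knockdown and at 10.8 to 14.3 CPM with mH2A1.2 knockdown, with control between them, and Myl4 and Mybph are lowest with mH2A1.1 knockdown.

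At the Z-disc, 12 of 13 genes were tested: Actn2 fell with both knockdowns, no gene rose against control without the replicate block, and 5 genes were higher in the direct comparison. Of all genes, 4.93% fell and 6.18% rose with mH2A1.1 knockdown, and 0.982% fell and 1.37% rose with mH2A1.2 knockdown. In the direct comparison 12.0% of all genes were higher. Actn2 (ENSMUSG00000052374, chr13:12269426-12340760) encodes alpha-actinin 2, which crosslinks thin filaments at the Z-disc. It stood at 192, 170.0 and 179 CPM in control, 86.1, 132 and 105 CPM with mH2A1.1 knockdown and 81.4, 72.9 and 72.3 CPM with mH2A1.2 knockdown. No groups overlapped. It fell 1.67-fold with mH2A1.1 knockdown (log2 fold change -0.74 ± 0.14, adjusted p = 0.0125) and 2.39-fold with mH2A1.2 knockdown (-1.25 ± 0.14, adjusted p = 0.00631), and was the only one of the 44 genes called lower in both. The first call was lost without KD mH2A1.1 replicate 3 (adjusted p = 0.0541) and the second held in all 9 fits that left out a sample. In the direct comparison Actn2 was 1.42-fold higher with mH2A1.1 knockdown (0.51 ± 0.14, adjusted p = 0.0273), a call lost without KD mH2A1.1 replicate 2 or 3 or KD mH2A1.2 replicate 2 or 3.

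Actn3, the fast-fibre alpha-actinin, held 330.0, 247 and 406 CPM in control, 413, 321 and 280.0 CPM with mH2A1.1 knockdown and 284, 224 and 293 CPM with mH2A1.2 knockdown, with overlapping groups and adjusted p values of 0.904 and 0.522 against control. Pdlim3, a PDZ and LIM protein that binds alpha-actinin, held 182, 102 and 181 CPM in control, 215, 202 and 215 CPM with mH2A1.1 knockdown and 133, 74.9 and 110.0 CPM with mH2A1.2 knockdown. It was 1.99-fold higher in the direct comparison (log2 fold change 0.99 ± 0.24, adjusted p = 0.016), a call lost without KD mH2A1.1 replicate 1 or KD mH2A1.2 replicate 2. The actin-binding proteins Synpo2l (0.81 ± 0.16, adjusted p = 0.00695) and Xirp1 (0.71 ± 0.19, adjusted p = 0.0238) and the calcineurin-binding Myoz2 (0.49 ± 0.16, adjusted p = 0.0484) were also higher there. The call of Myoz2 was kept in 3 of 9 fits that left out a sample and that of Xirp1 in 5 of 9.

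The other Z-disc genes passed the threshold in no comparison without the replicate block. Csrp3, the muscle LIM protein, and Ldb3, also called Cypher, were at -0.60 ± 0.20 (adjusted p = 0.0746, and 0.046 with the block) and -0.42 ± 0.14 (adjusted p = 0.0795, and 0.0194 with the block) with mH2A1.1 knockdown, with all samples below control. Tcap, the titin cap, varied widely among the control samples, at 10.5, 13.2 and 29.6 CPM. It gave -1.07 ± 0.42 (adjusted p = 0.238, and 0.045 with the block) with mH2A1.2 knockdown. Myoz1, Myot and Xirp2 were low, at 0.783 to 13.0 CPM, and their SE reached 0.57.

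Desmin filaments link Z-discs of neighbouring myofibrils, and Des was among the abundant genes. Des (ENSMUSG00000026208, chr1:75360329-75368579) held 1349, 1143 and 1166 CPM in control, 1897, 1620.0 and 1486 CPM with mH2A1.1 knockdown and 879, 774 and 728 CPM with mH2A1.2 knockdown. Every sample of mH2A1.1 knockdown lay above and every sample of mH2A1.2 knockdown below the control samples. Des fell 1.54-fold with mH2A1.2 knockdown (log2 fold change -0.62 ± 0.14, adjusted p = 0.0466, and 0.012 with the replicate block), a call kept only without KD mH2A1.1 replicate 1 among the 9 fits that left out a sample. With mH2A1.1 knockdown Des gave 0.45 ± 0.14 (adjusted p = 0.0577, and 0.0135 with the block). The direct difference was 2.1-fold (1.07 ± 0.14, adjusted p = 0.000844) and held in all 9. Cryab, a chaperone of desmin, was at -0.61 ± 0.15 with mH2A1.2 knockdown (adjusted p = 0.0632, and 0.0266 with the block), and 13.3% of its windows occur in other transcripts, foremost Hspb2, at 26.9 to 42.6 CPM.

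Of the 7 assembly and turnover genes, Klhl40 fell with mH2A1.2 knockdown and 4 were higher in the direct comparison. Of all genes, 0.982% fell with mH2A1.2 knockdown and 12.0% were higher in the direct comparison. Klhl40 (ENSMUSG00000074001, chr9:121777607-121783818), a Kelch protein that stabilises leiomodin 3 and nebulin, had the lowest spread of the 44 genes among control samples, relative to its level. It stood at 51.7, 53.0 and 52.2 CPM in control, 50.6, 45.2 and 41.3 CPM with mH2A1.1 knockdown and 30.2, 28.5 and 28.9 CPM with mH2A1.2 knockdown. The groups did not overlap, and those of control and mH2A1.1 knockdown lay close together. It fell 1.79-fold with mH2A1.2 knockdown (log2 fold change -0.84 ± 0.09, adjusted p = 0.00631) and was at -0.20 ± 0.09 (adjusted p = 0.187) with mH2A1.1 knockdown. The direct difference was 0.65 ± 0.09 (adjusted p = 0.00156). Of its windows, 20.0% occur in other transcripts, foremost the antisense gene Gm47108, which had 4 to 12 counts per sample.

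Smyd1, a methyltransferase, held 80.3, 65.6 and 104 CPM in control. Its levels were 143, 107 and 101 CPM with mH2A1.1 knockdown and 62.8, 52.3 and 67.5 CPM with mH2A1.2 knockdown. It was 1.92-fold higher in the direct comparison (log2 fold change 0.94 ± 0.18, adjusted p = 0.00658). Against control it gave 0.49 ± 0.18 (adjusted p = 0.107, and 0.048 with the block) and -0.45 ± 0.18 (adjusted p = 0.262, and 0.143 with the block), where its ranges overlapped. Unc45b, the myosin chaperone, was higher in the direct comparison by 0.74 ± 0.21 (adjusted p = 0.0281) and Trim54, a ubiquitin ligase of the MuRF family, by 0.64 ± 0.18 (adjusted p = 0.0274), both calls kept in 5 of 9 fits that left out a sample. Of the windows of Trim54, 18.4% occur in other transcripts, foremost Gm15469, at 0.483 to 1.36 CPM. Klhl41, Trim63, which marks sarcomere proteins for degradation, and Murc, a caveolar protein, were not called in any comparison without the block. Klhl41 gave -0.65 ± 0.19 with mH2A1.2 knockdown (adjusted p = 0.124, and 0.0215 with the block).

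Summed over the 46 genes, control samples held 30897, 27067 and 38429 CPM, mH2A1.1 knockdown 25867, 28743 and 30045 CPM and mH2A1.2 knockdown 23577, 21482 and 27803 CPM. The sums are led by the most abundant genes, Ttn above all, and the control range overlapped with both. Without Ttn the ranges were 20934 to 27988, 20289 to 21457 and 16308 to 21356 CPM. Of the role groups, Z-disc genes summed to 1193 to 1737 CPM in control and to 950.0 to 1172 CPM with mH2A1.2 knockdown, and desmin with Cryab to 1487 to 1715 and 1020.0 to 1093 CPM. These 2 sums did not overlap with control, and neither did the sum of the assembly and turnover genes, at 985 to 1382 against 689 to 957 CPM. The larger sums did overlap with control, at 9438 to 13783 against 7601 to 11247 CPM for the thin filament and 12660 to 19929 against 9931 to 13434 CPM for the thick filament and M-band. With mH2A1.1 knockdown desmin and Cryab summed to 1821 to 2255 CPM, above control, and the sum of the assembly and turnover genes, at 963 to 1039 CPM, overlapped with it, as did the Z-disc sum at 1481 to 1546 CPM.

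**Figure D5:**
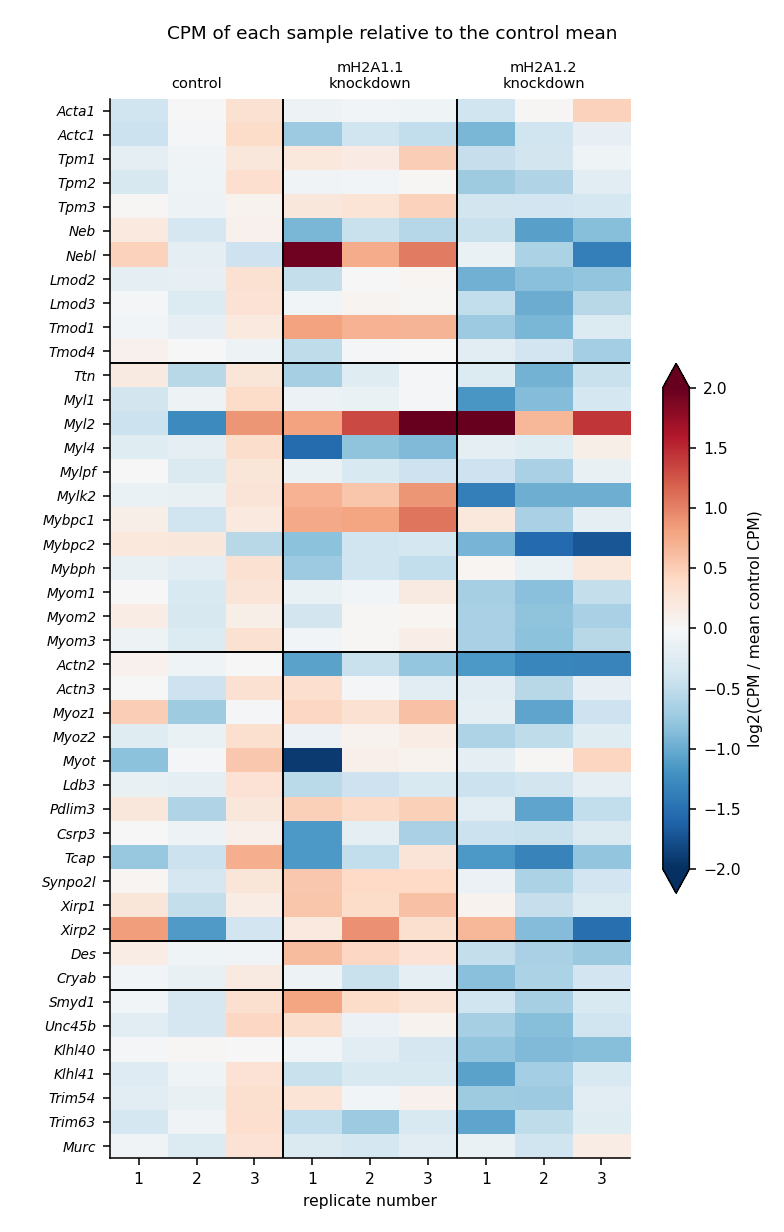
Log2 ratio of the CPM of each sample to the control mean for the 44 tested genes, by group and replicate and ordered by role, with colours cut off at -2 and 2. Most cells of mH2A1.2 knockdown are blue (lower), WT replicate 3 is mostly red (higher) among the control samples, and Tmod1, Mylk2 and Mybpc1 are red in all samples of mH2A1.1 knockdown.

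Several sarcomere proteins come in forms that replace each other in development or between fibre types. Their shares of the summed CPM per kb of exon of each set are given as a description, without a test. The length joins the exons of all annotated transcripts of a gene, such as 4.64 kb for Myl4 and 2.07 kb for Myl1. The size of a share depends on these lengths. Of Myl1, Myl4 and Myl3 together, Myl4 made up 26.7%, 23.9% and 24.7% in the control samples, 11.0%, 17.3% and 15.6% with mH2A1.1 knockdown and 39.7%, 34.0% and 31.5% with mH2A1.2 knockdown. No groups overlapped, with control in the middle, and this was the only set in which the knockdowns lay on opposite sides of control. In the other sets that separated from control, both knockdowns shifted the same way or only mH2A1.1 knockdown did.

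Of the 2 actins, Acta1 made up 59.4%, 59.7% and 57.8% in control, 68.8%, 64.5% and 65.5% with mH2A1.1 knockdown and 67.1%, 65.5% and 68.9% with mH2A1.2 knockdown. Of the alpha-actinins, Actn2 made up 30.8%, 34.4% and 25.2% in control, 13.7%, 23.9% and 22.3% with mH2A1.1 knockdown and 18.0%, 19.9% and 15.9% with mH2A1.2 knockdown. In both sets the knockdowns lay on the same side of control and overlapped each other, with a larger share of skeletal actin and of Actn3 than in control. The fast Mybpc2 held 9.64%, 13.4% and 5.58% of both binding protein C genes in control, 3.24%, 4.23% and 3.62% with mH2A1.1 knockdown and 4.32%, 5.07% and 3.37% with mH2A1.2 knockdown.

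Of the tropomyosins, Tpm1 held 19.4%, 18.5% and 17.5% in control, 21.2%, 20.4% and 23.2% with mH2A1.1 knockdown and 20.7%, 20.7% and 19.8% with mH2A1.2 knockdown, and Tpm2 was below its control range of 72.4% to 76.8% with mH2A1.1 knockdown only, at 68.5% to 71.6%. Tmod4 held 6.2%, 6.26% and 4.64% of both tropomodulins in control, 2.34%, 3.49% and 3.57% with mH2A1.1 knockdown and 7.89%, 7.94% and 4.35% with mH2A1.2 knockdown. Its counts were low in all groups, and the share followed the level of Tmod1. Myl2 stayed under 0.3% of both regulatory light chains in every sample, at 0.0192% to 0.0587% in control and 0.0719% to 0.298% over both knockdowns. The shares of the myomesins, the calsarcins Myoz1 to Myoz3 and the leiomodins overlapped between all groups.

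The other genes of the sarcomere were counted from separate lists. Beside them, 6.18% of all genes rose and 4.93% fell with mH2A1.1 knockdown, and 1.37% rose and 0.982% fell with mH2A1.2 knockdown. In the direct comparison 12.0% of all genes were higher and 10.5% lower. Of 8 troponins, the calcium switch of the thin filament, 2 fell with mH2A1.2 knockdown, Tnnt3 (-0.96 ± 0.18, adjusted p = 0.028) and Tnni3 (-1.98 ± 0.31, adjusted p = 0.0161), none was called with mH2A1.1 knockdown (1 had an unadjusted p under 0.05), and 5 were higher in the direct comparison. Of 8 myosin heavy chains, the fast forms Myh1 (1.26 ± 0.33, adjusted p = 0.0378) and Myh4 (1.57 ± 0.31, adjusted p = 0.0142) rose and the cardiac form Myh6 (-1.60 ± 0.40, adjusted p = 0.0327) fell with mH2A1.1 knockdown, and Myh1 fell with mH2A1.2 knockdown (-1.76 ± 0.34, adjusted p = 0.0296). In the direct comparison 3 heavy chains were higher and 2 lower. Of 32 further sarcomere and costamere genes 30 were tested. Fhl1, Cmya5 and Synm rose and Mypn, Nrap and Ankrd2 fell with mH2A1.1 knockdown, Mypn, Nrap and Hspb7 fell with mH2A1.2 knockdown, and 8 were higher and 1, Ankrd2, was lower in the direct comparison. Their median log2 fold change was -0.18 with mH2A1.2 knockdown, where that of the 44 genes was -0.52.

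Among 16 tested regulators of muscle genes, Myf6, a MyoD-family factor also called MRF4, separated the groups most. It stood at 4.26, 3.46 and 3.35 CPM in control, 12.3, 15.0 and 14.1 CPM with mH2A1.1 knockdown and 1.27, 1.17 and 1.1 CPM with mH2A1.2 knockdown, without overlap. It was higher with mH2A1.1 knockdown (log2 fold change 1.90 ± 0.15, adjusted p = 0.000347) and lower with mH2A1.2 knockdown (-1.64 ± 0.17, adjusted p = 0.00481). With mH2A1.1 knockdown Mef2a (0.50 ± 0.10, adjusted p = 0.0176) also rose, and myogenin, Myog (-0.66 ± 0.14, adjusted p = 0.0204), and the low Mef2b (-1.33 ± 0.32, adjusted p = 0.0284) fell. Myf5 fell with mH2A1.2 knockdown (-0.84 ± 0.18, adjusted p = 0.0422). Srf was at 0.31 ± 0.12 (adjusted p = 0.11) and -0.30 ± 0.12 (adjusted p = 0.243) against control. Whether these factors have a part in the levels of the sarcomere genes was not tested.

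Summed markers of myoblasts and of smooth muscle separated the knockdowns from each other but overlapped with control in both. Against control, none of the 7 myoblast markers was called with mH2A1.1 knockdown, and with mH2A1.2 knockdown only Myf5 was, as lower. Of all genes tested, 6.18% rose and 4.93% fell with mH2A1.1 knockdown, and 1.37% rose and 0.982% fell with mH2A1.2 knockdown. In the direct comparison 12.0% were higher and 10.5% lower. The 7 markers of proliferating or reserve myoblasts summed to 260.0 to 400.0 CPM in control, 371 to 675 CPM with mH2A1.1 knockdown and 219 to 306 CPM with mH2A1.2 knockdown, and in the direct comparison 5 of them, Pax7, Myf5, Mki67, Top2a and Ccnb1, were higher and Id1 and Id3 lower with mH2A1.1 knockdown. The 5 smooth muscle or myofibroblast markers summed to 1569 to 2697, 1615 to 1972 and 2430 to 3285 CPM, led by Acta2, and Tagln, Cnn1 and Actg2 rose with mH2A1.2 knockdown while Tagln fell with mH2A1.1 knockdown. Differentiated muscle markers summed to 9547 to 14208 CPM in control, 7832 to 9315 CPM with mH2A1.1 knockdown and 8061 to 9551 CPM with mH2A1.2 knockdown. The sums with mH2A1.1 knockdown lay wholly below control, and those with mH2A1.2 knockdown overlapped with it only between 9547 and 9551 CPM. The mean sums were 11773, 8748 and 8865 CPM, of which Myh3 held 6781, 4673 and 5439 CPM. Of the 7, Myog and Mymx fell with mH2A1.1 knockdown and Tnnt3 fell with mH2A1.2 knockdown. None of the 7 was near 0, and the labelled cell type is met by Myog at 337 to 745 CPM and Myh3 at 4305 to 8065 CPM. The part of these shifts in the sarcomere genes was not tested. Heart markers summed to 37.1 to 97.3 CPM over all samples, mostly Myh6 and Gata4, with Nppa at no more than 3 counts. Of these, Myh6 fell with mH2A1.1 knockdown, and Gata4 and Tnni3 fell with mH2A1.2 knockdown. Fat cell markers summed to at most 1.55 CPM, with Adipoq and Cidec at no more than 3 counts, and endothelial markers to at most 1.36 CPM. Of the immune markers Cd3e had no more than 3 counts in any sample and Ptprc at most 0.222 CPM, while Cd68 rose with mH2A1.1 knockdown (1.62 ± 0.25, adjusted p = 0.00565).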

How the data were processed

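The authors selected polyadenylated RNA, sequenced single reads of about 50 bp and estimated counts per gene with Salmon on GRCm38. The deposited table holds these estimated counts as whole numbers without normalization. A second table with normalized values was not used here. The annotation release was not given in the sources used here. GENCODE M21, which matched 52762 of 52780 genes, gave symbols, positions and the length of exons, joined over all annotated transcripts of a gene. Levels are CPM, scaled by TMM.

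Differences were tested with edgeR 4.0.16 in R 4.3.3 (quasi-likelihood, legacy form, TMM, filterByExpr, 19545 genes, 9 samples in 1 model), with Benjamini-Hochberg adjustment over all genes. Genes were called at an adjusted p of at most 0.05, the limit in the study's methods, and the stricter rule added its fold change cutoff. SE was taken as the absolute log2 fold change divided by the square root of F. The script was tested on simulated data. Alternatives were DESeq2 1.42.0, edgeR with its size factors, a block for the replicate number, a fit to just the groups compared, no low-count filter, a minimum of 10 counts in each sample, and leaving out each of the 9 samples. The newer form of edgeR was added after seeing the data. The deposited counts ranged from 36924252 to 42223108 per sample. A count of 3, used as the floor, is at most 0.0825 CPM and covers counting error only. The SD and SE values include the spread between samples.

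Same-numbered samples of control and mH2A1.2 knockdown deviated together over genes (r = 0.331, 0.291 and 0.196), so their numbers pair them. For mH2A1.1 knockdown against control r was 0.0841 to 0.0976, below the limit of 0.1 set for this. In the direct comparison r was 0.0917, 0.102 and 0.116, on both sides of that limit. Over all pairs of groups the mean r was 0.155 for samples of the same number and -0.0773 for the others.

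The genes and lists were chosen with earlier results of these data known. Values in every sample are given for up to 8 called genes with the largest change in each direction of each comparison, the 5 with the highest control level, those whose share of an isoform set separated groups, and those with no more than 3 counts in any sample. Other genes were named only from the lists. A regulator on these lists is not reported here. Windows of 50 bases shared with other genes were counted in GENCODE M21 transcripts. Promoters are from RefSeq, and the version of Python was 3.11.15.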

Additional observations from a re-analysis of the deposited data

How the results depend on the processing

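With mH2A1.1 knockdown against control, the 5 genes called became 13 with DESeq2, 10 without a filter on low counts and 18 with the replicate number as a block, and the 0 at the stricter rule became 3, 2 and 3. Over all genes the shares called higher and lower were 6.18% and 4.93%, and became 4.85% and 4.1%, 3.67% and 2.95%, and 11.1% and 9.7%. With mH2A1.2 knockdown against control, the 7 called became 16 with DESeq2, 13 without a filter, 16 with the replicate block and 4 with only the 2 groups compared, and the 2 at the stricter rule became 5, 5, 4 and 1. The share of all genes called lower was 0.982%, and became 1.3%, 0.726%, 2.25% and 0.603%. DESeq2 and the fit without a filter count over 37475 genes, against 19545. The shares of all genes under the alternatives are at an adjusted p of at most 0.05, and none is given at the stricter rule. In the direct comparison the count was 23 to 28 under these alternatives (28 with the replicate block), against 24. Over all genes the shares called higher and lower were 12.0% and 10.5% there. They became 7.26% and 6.06% with DESeq2 and 6.13% and 5.18% without a filter. With the block they were 15.4% and 13.6%, and with only the 2 groups compared 10.8% and 8.99%. Leaving out 1 sample gave 0 to 8 called (0 to 2 at the stricter rule) for mH2A1.1 knockdown, 3 to 8 (0 to 2) for mH2A1.2 knockdown and 13 to 25 (3 to 7) in the direct comparison, where the stricter count fell to 3 without KD mH2A1.1 replicate 3 or KD mH2A1.2 replicate 2 or 3 and to 4 without WT replicate 1 or KD mH2A1.1 replicate 1. The stricter count was 2 for mH2A1.1 knockdown without KD mH2A1.1 replicate 2, and for mH2A1.2 knockdown it was 1 without KD mH2A1.1 replicate 2 and 0 without any other sample but KD mH2A1.1 replicate 1. In the fits that left out a sample, 1.92% to 8.18% of all genes were called higher and 1.04% to 6.39% lower for mH2A1.1 knockdown. For mH2A1.2 knockdown the shares were 0.218% to 1.66% and 0.144% to 1.07%, and in the direct comparison 6.04% to 12.4% and 5.12% to 10.6%. The medians of the sarcomere genes in these fits were -0.13 to 0.15, -0.61 to -0.38 and 0.53 to 0.63. Where fewer samples were fitted the test had fewer degrees of freedom, and otherwise the cause was not tested. No called gene changed direction under any alternative. DESeq2's size factors, at least 10 counts in every sample and the newer edgeR form kept every count within 1.5 times. For mH2A1.1 knockdown against control the same-number r stayed below the limit of 0.1, and in the direct comparison it lay on both sides of it. By that limit it is not settled whether the replicate numbers pair these samples. Each sample nevertheless correlated best with its own number. The names of the deposited count columns also run consecutively within each replicate number across the 3 groups. The study's methods name no block, so the fit behind the calls had none, and the counts with the block are given beside it.

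With 3 samples a group, an exact permutation test of a single value cannot go below 0.1, so calls rest on the model's shared estimate of spread. Genes of few counts, such as Myl2 and Nebl, have wide errors, and Myl3 and Myoz3 could not be tested at this depth.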
